A study of Homo sapiens with 6 samples.

Results

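The small nucleolar RNA (snoRNA) host genes were the 32 rows of the deposited gene table whose symbol was SNHG followed by digits, or GAS5, ZFAS1, EPB41L4A-AS1, or CYTOR, out of 46427 genes. All 32 were annotated as lncRNA. RNA-seq was performed on total RNA of the non-small cell lung cancer (NSCLC) cell lines H460, H1299, and A549, and each line contributed 1 library of control cells and 1 of si-MALAT1 cells. The si-MALAT1 cells were transiently transfected with siRNA against MALAT1, a nuclear lncRNA, using Lipofectamine RNAiMAX. The labels call the control cells non-treated, whereas the methods describe both negative controls and cells given si-Control and do not say which were sequenced, so the transfection itself and the loss of MALAT1 cannot be told apart here. Each line is an established tumor cell line grown as a bulk culture, and fewer cells carrying an RNA and less of that RNA per cell cannot be told apart.

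A snoRNA host gene is transcribed as a long precursor whose introns carry snoRNAs. After splicing, the intron is trimmed to a snoRNA that guides ribose methylation (box C/D class) or pseudouridylation (box H/ACA class) of ribosomal RNA, and the spliced host RNA remains. Many host transcripts begin with a C followed by a run of pyrimidines, the TOP motif shared with ribosomal protein mRNAs, and several are engaged by ribosomes and degraded by nonsense-mediated decay (NMD), as is known for GAS5, growth arrest-specific 5.

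The deposited annotation placed 146 snoRNA genes inside 29 of the 32 host genes on the same strand, and 83 of these lay in SNHG14 alone. Of the other 63, 38 were named as box C/D, 21 as H/ACA, and 4 as Cajal body RNAs, and 54 lay wholly in introns. GAS5 held 11 and SNHG1 held 8. CYTOR, SNHG27, and SNHG28 held none, so they are host genes by the selection rule but not by this annotation. The start regions of 28 hosts were found in the RefSeq table (GRCh38.p14), and a C stood at the annotated start in 11 of them, 39.3%, compared with 14.4% of 24263 genes, 19.8% of 8707 lncRNA genes, and 70.4% of 71 cytosolic ribosomal protein genes. For 23 of the 28, this start was also the first base of the gene in the deposited annotation. It was not for GAS5, SNHG4, SNHG12, SNHG17, and ZFAS1, so their start base depends on the annotation. The longest run of C and T in the window from 10 bases before the start to 20 bases from it had a median of 6 bases in the hosts, 4 in all genes, and 10 in ribosomal protein genes. A run of at least 8 bases was present in 21.4% of the hosts, 12.5% of all genes, and 74.6% of ribosomal protein genes. The 8 windows below show hosts with and without a C at the start. Each is 30 bases on the strand of the gene, the start is base 11, and capitals mark the longest run of C and T. The first 6 have a C at the start and the last 2 do not. Of the 8, only SNHG32 has a run of at least 8 bases. The marked run need not follow the start: in SNHG7 it lies before it, in SNHG8 it ends there, and in SNHG1 it begins after it.
SNHG1 (chr11:62855866-62855895, minus strand): gagattcgttctcaTTTTTCTactgctcgt
SNHG7 (chr9:136728165-136728194, minus strand): CCTTCTCgtcctctgcgtgcgccggaggct
SNHG19 (chr16:2155339-2155368, minus strand): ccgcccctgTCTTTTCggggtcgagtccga
SNHG5 (chr6:85678714-85678743, minus strand): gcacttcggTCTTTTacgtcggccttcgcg
SNHG8 (chr4:118278752-118278781, plus strand): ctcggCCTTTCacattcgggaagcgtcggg
SNHG32 (chr6:31834906-31834935, plus strand): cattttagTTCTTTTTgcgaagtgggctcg
CYTOR (chr2:87455417-87455446, plus strand): atgagtcaTCTCgttccaatgagaatgaag
EPB41L4A-AS1 (chr5:112160516-112160545, plus strand): tcatgaaTTCTgtcgggtcccaaaatacgt
The next 6 sequences, from hg38, are example snoRNAs inside hosts whose values are given later. In SNHG1 and SNHG29 other snoRNAs, such as SNORD22 and SNORD49A, had more reads than those shown. In the box C/D snoRNAs, capitals mark TGATGA (box C) within 18 bases of the 5' end and CTGA (box D) within 18 bases of the 3' end, searched on the snoRNA strand. In the H/ACA snoRNA, capitals mark ACA within 8 bases of the 3' end. Of the 37 box C/D snoRNAs outside SNHG14 that were read, 64.9% had that form of box C and 94.6% box D, against 0 and 4.17% of the 24 others, and ACA was present in 5.41% and 91.7%.
SNORD76 in GAS5 (chr1:173866635-173866715, minus strand): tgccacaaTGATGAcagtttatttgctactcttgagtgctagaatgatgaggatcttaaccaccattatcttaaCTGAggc
SNORD47 in GAS5 (chr1:173864369-173864445, minus strand): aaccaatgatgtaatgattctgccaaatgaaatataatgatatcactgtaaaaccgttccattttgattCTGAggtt
SNORD31 in SNHG1 (chr11:62853326-62853393, minus strand): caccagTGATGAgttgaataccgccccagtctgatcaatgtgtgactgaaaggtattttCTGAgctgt
SNORD27 in SNHG1 (chr11:62855012-62855083, minus strand): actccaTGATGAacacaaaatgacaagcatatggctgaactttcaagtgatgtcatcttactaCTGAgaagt
SNORD65 in SNHG29 (chr17:16441226-16441298, plus strand): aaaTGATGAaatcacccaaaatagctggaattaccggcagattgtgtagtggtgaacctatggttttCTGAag
SNORA73A in SNHG3 (chr1:28507365-28507571, plus strand): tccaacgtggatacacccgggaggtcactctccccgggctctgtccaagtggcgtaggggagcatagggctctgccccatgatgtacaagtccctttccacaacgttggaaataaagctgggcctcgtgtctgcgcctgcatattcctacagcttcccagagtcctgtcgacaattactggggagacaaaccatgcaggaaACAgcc

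The libraries held between 42506818 and 68515992 counted reads. MALAT1 fell by 79.9% in H460, fell by 87.1% in H1299, and fell by 86.1% in A549. The lines were told apart by AKR1B10, at 0.22 and 0.23 TPM in H1299 and 757 to 3330 TPM in the others, and by CDKN2A, listed at 0 in H460 and A549 and at 47.2 and 49.3 TPM in H1299. With 1 library per line and condition, a change within a line has no replicate check. Changes are log2 fold changes of reads scaled by RLE size factors plus 1, si-MALAT1 minus control, and the 95% interval beside a change (exact, Clopper-Pearson) treats the reads of a gene in both libraries of a line as binomial draws, so it covers counting error only.

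The 32 hosts together made up 3783 TPM in control H460 cells and 3302 TPM after the knockdown. The sums were 2091 and 1781 TPM for H1299 and 2249 and 1985 TPM for A549. In each line the sum was thus lower in the si-MALAT1 library. The 5 most abundant hosts, SNHG29, GAS5, SNHG5, ZFAS1, and SNHG32, carried between 63.0% and 70.3% of the sum. At least 1 read was found in all 6 libraries for 29 hosts, and 28 had a mean of at least 50 reads. SNHG18, SNHG22, SNHG27, and SNHG28 were under that mean. SNHG27 had reads in H1299 only, at 1.496 and 1.745 TPM.

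**Figure D1:**
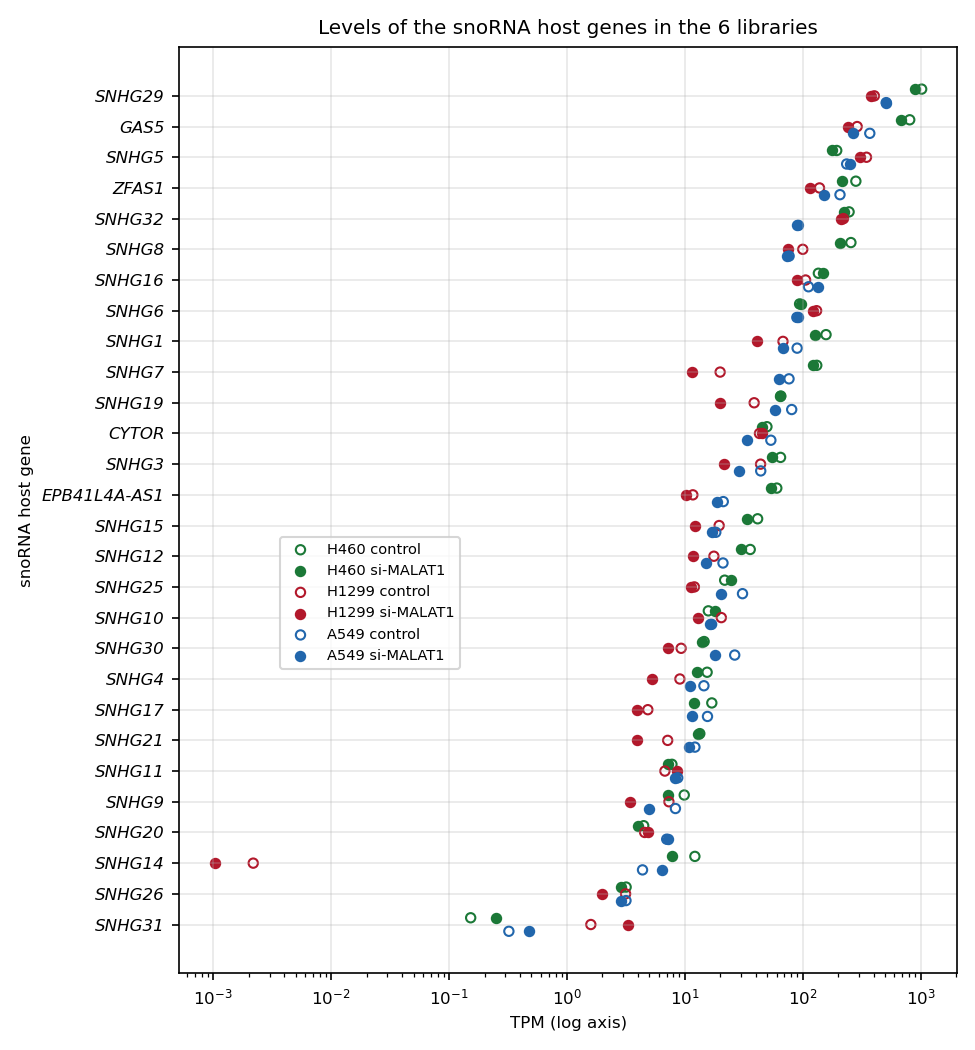
TPM on a log axis of the 28 snoRNA host genes with a mean of at least 50 reads, ordered by mean TPM, in the control (open) and si-MALAT1 (filled) library of each cell line. SNHG29 and GAS5 were highest, most hosts were lowest in H1299, and SNHG14 was almost absent from H1299, where it had 3 and 1 reads.

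To see how the hosts differ between the cell lines, the line was tested in a model with both treatment and line. Of the 31 hosts tested, 22 differed between lines (edgeR quasi-likelihood F-test, adjusted p under 0.05), 71.0%, beside 62.9% of all genes tested, so the share was near the background, and without H1299 13 were called. Of the 22, 16 had their highest mean TPM in H460, where 25.3% of the 13687 called genes had theirs, and 17 their lowest in H1299, where 35.2% of the called genes had theirs, ties included. These shares were not tested.

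SNHG29, which holds SNORD49A, SNORD49B, and SNORD65, was at 1021 TPM in control H460 cells and 901 after the knockdown. The H1299 pair had 405 and 378 TPM and the A549 pair 511 and 507. The H460 libraries stood above all others (adjusted p = 0.000373 for the cell line). GAS5 was at 808 and 678 TPM in H460, with 290 and 242 for H1299 and 371 and 265 for A549, again with H460 apart from the overlapping H1299 and A549 libraries (adjusted p = 0.000298). SNHG32, the host of SNORD48 and SNORD52, showed another order, with 92.0 and 89.6 TPM in A549 below 247 and 224 in H460 and 222 and 212 in H1299 (adjusted p = 0.000399). SNHG5, the host of SNORD50A and SNORD50B, was highest in H1299, at 348 and 305 TPM, and was at 194 and 177 in H460 and 236 and 250 in A549, and this difference missed the threshold (adjusted p = 0.0587).

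SNHG7 and SNHG14 were the hosts with the widest gaps among those lowest in H1299. SNHG7, the host of SNORA17A and SNORA17B, was at 132 and 121 TPM in H460, 76.5 and 63.1 in A549, and 19.9 and 11.5 in H1299 (adjusted p = 0.000515). SNHG14, a transcript that spans the imprinted SNORD115 and SNORD116 clusters of chromosome 15 and runs antisense to UBE3A, had 13662 and 9066 reads in H460, 2948 and 4828 in A549, and 3 and 1 in H1299, or 12.2 and 7.77, 4.38 and 6.43, and 0.0022 and 0.001 TPM (adjusted p = 4.66e-05). Its 83 snoRNAs had 0 reads in both H1299 libraries, and 1957 and 1373 reads in H460 and 395 and 364 in A549. SNHG31 went the other way, at 1.59 and 3.32 TPM in H1299, 0.15 and 0.25 in H460, and 0.32 and 0.48 in A549 (adjusted p = 0.000987). For CYTOR, SNHG10, and SNHG11, the mean TPM of the highest line was at most 1.14-fold that of the lowest (adjusted p = 0.138, 0.337, and 0.392).

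The question of the knockdown comparison is which hosts change when MALAT1 is lowered. In H1299, 12 of the 29 hosts with reads in every library were at least 1.5-fold lower after si-MALAT1, 41.4%, where 11.4% of the 17834 genes with such reads were. One of the 12 is SNHG14, whose 3 and 1 reads carry no usable ratio, and the 11 left without it were SNHG1, SNHG3, SNHG4, SNHG7, SNHG9, SNHG10, SNHG12, SNHG15, SNHG19, SNHG21, and SNHG26. In A549, 4 hosts (CYTOR, SNHG3, SNHG9, and SNHG25) were at least 1.5-fold lower, 13.8%, against 11.4% of all genes, a share near the background. In H460 none was, against 10.3%. A gain of at least 1.5-fold was seen for 1 host in H460, 1 in H1299 (SNHG31 in both), and 0 in A549, beside 9.5%, 11.7%, and 11.5% of all genes. The median log2 fold change of the hosts was -0.43 in H1299, -0.13 in A549, and -0.01 in H460, where that of all genes was 0.02, 0.01, and 0.02. On the TPM scale the H1299 median of the hosts was -0.26, and 24 of 29 hosts were below 0 in H460 beside 63.0% of all genes, where on the scaled-read scale it was 17 beside 48.1%.

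No host was at least 1.5-fold lower in all 3 lines, as were 1.28% of all genes, and none was at least 1.5-fold higher, as were 1.19%. Without H460, SNHG3 and SNHG9 were lower by that much in both lines, and without A549, SNHG31 was higher. No share of all genes over 2 lines stands beside these counts, and SNHG9 had a mean of 82.0 reads. By any size, 14 of the 29 hosts were lower in all 3 lines, 48.3%, beside 18.8% of all genes, and 1 host was higher in all 3, beside 21.4%. The counting interval lay below 0 in all 3 lines for 7 hosts, 24.1%, and for 8.28% of all genes. These 7 were GAS5, SNHG1, SNHG3, SNHG4, SNHG12, SNHG17, and ZFAS1. The interval is narrower for genes with more reads, and the share of all genes includes genes with few reads. H1299 gave the lowest of the 3 log2 fold changes for 20 of the 29 hosts and for 34.7% of all genes. Whether the response differs between the lines could not be tested, since each line has 1 library per condition.

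**Figure D2:**
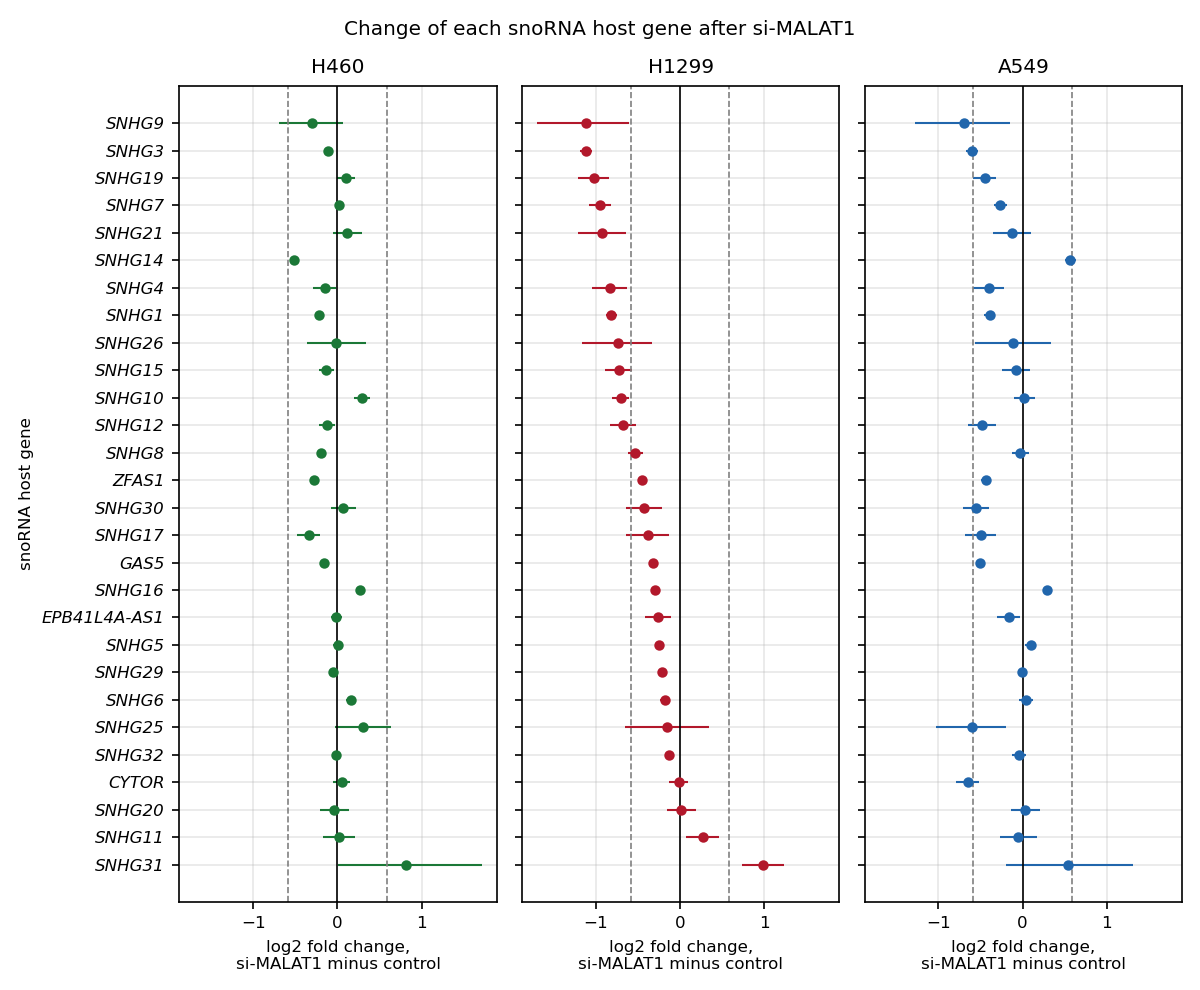
Log2 fold change of each snoRNA host gene, si-MALAT1 minus control, in the 3 cell lines, with bars for the exact 95% counting interval, a solid line at 0, and dashed lines at a fold change of 1.5. Points spread to the left in H1299, where 11 hosts passed the left dashed line, and lay near 0 in H460, and SNHG14 is not drawn in H1299, where it had 3 and 1 reads.

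In the paired test over the 3 lines, with the line as the block, 30 hosts were tested and none was called (edgeR quasi-likelihood test, adjusted p under 0.05). Of 19122 genes, 1 was called lower, 0.00523%, and it was MALAT1, while 163 genes and again no host were called without H460. At an unadjusted p under 0.05, 8 hosts passed, 7 of them lower, 26.7% of the hosts tested, where 15.0% of all genes passed. DESeq2 on the same model called 2 hosts lower, ZFAS1 (adjusted p = 0.0124) and SNHG1 (adjusted p = 0.0455), and none higher, where it called 3.02% of all genes lower, and it gave 6 hosts no adjusted p.

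ZFAS1, an antisense RNA of ZNFX1 that holds SNORD12, SNORD12B, and SNORD12C, had the smallest p among the hosts. Its scaled reads were 14043 in control H460 cells and 11626 after the knockdown, with 5691 and 4169 for H1299 and 8977 and 6625 for A549. It was lower in each line, with a log2 fold change of -0.27 (95% interval -0.31 to -0.24) in H460, -0.45 (-0.50 to -0.40) in H1299, and -0.44 (-0.49 to -0.39) in A549, and a mean of -0.39 ± 0.10 (SD, n = 3 lines, edgeR adjusted p = 0.184). SNHG1, the host of 8 box C/D snoRNAs including SNORD22, had scaled reads of 11281 and 9673 for H460, 4289 and 2441 for H1299, and 5841 and 4451 for A549. Its log2 fold changes were -0.22 (-0.26 to -0.18), -0.81 (-0.88 to -0.75), and -0.39 (-0.46 to -0.33), so it was lower in 3 of 3 lines with the widest gap in H1299 (edgeR adjusted p = 0.207).

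SNHG3, the host of the H/ACA snoRNAs SNORA73A and SNORA73B, was lower by at least 1.5-fold in both H1299 and A549. It had 7892 and 7322 scaled reads for H460, 4551 and 2105 for H1299, and 4556 and 3004 for A549, and was thus at log2 values of -0.11 (-0.15 to -0.06), -1.11 (-1.18 to -1.04), and -0.60 (-0.68 to -0.53). The 3 lines pointed the same way but differed widely in size (edgeR adjusted p = 0.231). SNHG3 shares 151 exonic bases with RCC1 on the same strand. SNHG12, the host of SNORD99 and 3 H/ACA snoRNAs, had 1707 and 1564 scaled reads for H460, 754 and 471 for H1299, and 879 and 629 for A549 (log2 fold changes -0.13, -0.68, and -0.48, edgeR adjusted p = 0.254). SNHG17, the host of 4 SNORA71 genes, had 977 and 772 scaled reads for H460, 242 and 185 for H1299, and 735 and 522 for A549. Its log2 fold changes of -0.34, -0.39, and -0.49 lay closest together of these 5 hosts (SD 0.08, edgeR adjusted p = 0.256).

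GAS5, which accumulates in growth-arrested cells and holds SNORD44, SNORD47, and SNORD74 to SNORD81, had 27695 and 24882 scaled reads for H460, 8181 and 6555 for H1299, and 10826 and 7641 for A549. It was lower in all 3 lines, and here A549 rather than H1299 gave the largest gap, at a log2 fold change of -0.50 (-0.55 to -0.46) beside -0.32 (-0.36 to -0.28) for H1299 and -0.15 (-0.18 to -0.13) for H460 (edgeR adjusted p = 0.269). Its exons overlap GAS5-AS1 by 43 bases and ZBTB37 by 74 on the other strand, and whether counting used the strand is not given in the sources used here. SNHG4, the host of SNORA74A and SNORA74D, was also lower in the 3 lines, at -0.15, -0.83, and -0.40 (log2 fold changes, edgeR adjusted p = 0.295), and shares 601 exonic bases with MATR3. SNHG9, the host of SNORA78, showed -0.31, -1.12, and -0.70 on a mean of 82.0 reads, with an interval in H460 that included 0.

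SNHG7, SNHG19, SNHG21, and SNHG10 were above 0 in H460 and at least 1.5-fold lower in H1299. SNHG7 had 7234 and 7327 scaled reads for H460, 1231 and 637 for H1299, and 3669 and 3051 for A549. Its log2 fold changes were 0.02 (-0.03 to 0.06), -0.95 (-1.08 to -0.82), and -0.27 (-0.34 to -0.19). SNHG19, the host of SNORD60, followed with 1254 and 1349 scaled reads for H460, 632 and 311 for H1299, and 1326 and 970 for A549, or 0.11, -1.02, and -0.45. SNHG21, the host of SCARNA15, had 540 and 587, 249 and 131, and 421 and 386 scaled reads in the same order, or 0.12, -0.92, and -0.13. SNHG10, whose exon contains SCARNA13, had 1513 and 1849, 1623 and 996, and 1344 and 1362 scaled reads. It was higher in H460 (0.29, 0.19 to 0.39), lower in H1299 (-0.70, -0.81 to -0.60), and at 0.02 in A549. SNHG15, the host of SNORA9, and SNHG26, the host of SNORD93, were both at -0.73 in H1299. In H460, SNHG15 was also lower, at -0.13 (-0.22 to -0.04), while the interval of SNHG26 included 0 (-0.01, -0.36 to 0.34), and in A549 they were at -0.08 and -0.11, with intervals that included 0.

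Of the 5 most abundant hosts, SNHG29, SNHG32, and SNHG5 differed by less than GAS5 and ZFAS1. SNHG29 had 59005 and 56871 scaled reads for H460, 20078 and 17368 for H1299, and 25441 and 25237 for A549, or log2 fold changes of -0.05, -0.21, and -0.01. SNHG32 had 10403 and 10328, 7648 and 6974, and 3233 and 3142, or -0.01, -0.13, and -0.04. SNHG5 had 5307 and 5326, 8056 and 6756, and 5508 and 5881, or 0.01, -0.25, and 0.09. All 3 had their lowest log2 fold change in H1299, within 1.5-fold. SNHG6, the host of SNORD87, was at 0.16, -0.17, and 0.04, SNHG8, the host of SNORA24, at -0.20, -0.53, and -0.03, and EPB41L4A-AS1, the host of SNORA13, at -0.01, -0.26, and -0.16. SNHG16, which holds SNORD1A, SNORD1B, and SNORD1C, was higher in H460 and A549 (0.27 and 0.29) and lower in H1299 (-0.30), each with an interval on 1 side of 0.

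A few hosts stood outside this pattern. SNHG31 was the only one higher in all 3 lines, with 18.5 and 33.3 scaled reads for H460, 164 and 325 for H1299, and 34.2 and 50.01 for A549. Its log2 fold change was 0.81 (0.01 to 1.72) in H460 and 0.98 (0.74 to 1.24) in H1299, and the interval in A549 included 0 (0.53, -0.19 to 1.31, edgeR adjusted p = 0.278). SNHG14 had 12632 and 8870 scaled reads in H460, where its log2 fold change was -0.51 (-0.55 to -0.47). In A549 it had 3881 and 5749 scaled reads and was at 0.57 (0.50 to 0.63), so it went in opposite directions in the lines that have it. The summed reads of its snoRNAs were lower in both, at -0.43 (-0.53 to -0.33) in H460 and -0.26 (-0.47 to -0.05) in A549, against the direction of the host in A549. It shares 1875 exonic bases with SNRPN and 1392 with SNURF on the same strand. CYTOR, a cytoskeleton regulator RNA, was at least 1.5-fold lower in A549, and its intervals in H460 and H1299 included 0, with 1483 and 1537 scaled reads for H460, 1107 and 1094 for H1299, and 1390 and 885 for A549 (0.05, -0.02, and -0.65, -0.79 to -0.51). Of its windows of 100 exonic bases, 20.4% also occur in MIR4435-2HG, and how reads were divided between them is not given in the sources used here. In H460, H1299, and A549, SNHG25 was at 0.31, -0.15, and -0.60 and SNHG30 at 0.07, -0.43, and -0.55. SNHG30 thus lay at the host median in H1299. SNHG11 was at 0.02, 0.27 (0.08 to 0.46), and -0.05 in the same order. SNHG20, which shares 488 exonic bases with SEC14L1, was at -0.04, 0.02, and 0.03. On the other strand, SNHG29 overlaps exons of LRRC75A by 452 bases, SNHG6 those of MCMDC2 by 425, SNHG21 those of FSD2 by 359, and SNHG7 those of DIPK1B by 149.

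Grouped by their start, the 10 hosts with a C at the start and reads in every library had median log2 fold changes of -0.07, -0.70, and -0.33 in H460, H1299, and A549, and 10 of 10 were below 0 in H1299. The 15 hosts with another base there had medians of -0.01, -0.30, and -0.05, and 11 of 15 were below 0 in H1299. Of all 29 hosts with reads in every library, 86.2% were below 0 in H1299, beside 48.1% of all genes. GAS5 is among the 15, with an A at a RefSeq start 163 bases from the first base of the gene in the deposited annotation. SNHG17 is also among the 15, with a start 49 bases from it. SNHG4, SNHG12, and ZFAS1 are among the 10 with a C, with starts 349, 1110, and 464 bases from it. The groups were formed after their values were known and also differ in level, with median TPM of 81.3 and 14.9, and the difference was not tested.

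Reads were also counted on the snoRNAs inside the hosts. Reads of a snoRNA and of the unspliced intron around it cannot be told apart here. The reads of all snoRNAs inside a host were summed, and 14 hosts had a mean of at least 50 such reads and of 50 host reads. In H1299, 12 of the 13 with any such reads were lower after si-MALAT1, with a median log2 fold change of -0.54 for the snoRNAs and -0.45 for the same hosts, and the interval lay below 0 for 9. Beside this stood all 92 snoRNA genes with reads in every library and a mean of at least 50. Their median was -0.45 in H1299, with 84.8% below 0, so the count for the hosts was near that of snoRNAs in general. The 92 are single genes rather than sums per host, and they include snoRNAs inside the hosts. In A549, 10 of 14 were lower, with medians of -0.21 and -0.40, where 47.8% of the 92 snoRNA genes were below 0. In H460, 7 of 14 were lower, where 53.3% of the 92 were below 0. The H460 medians were 0.00 for the snoRNAs and -0.14 for the hosts, and the intervals lay below 0 for 4 and above 0 for 5. The interval counts have no share of all snoRNA genes beside them here.

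**Figure D3:**
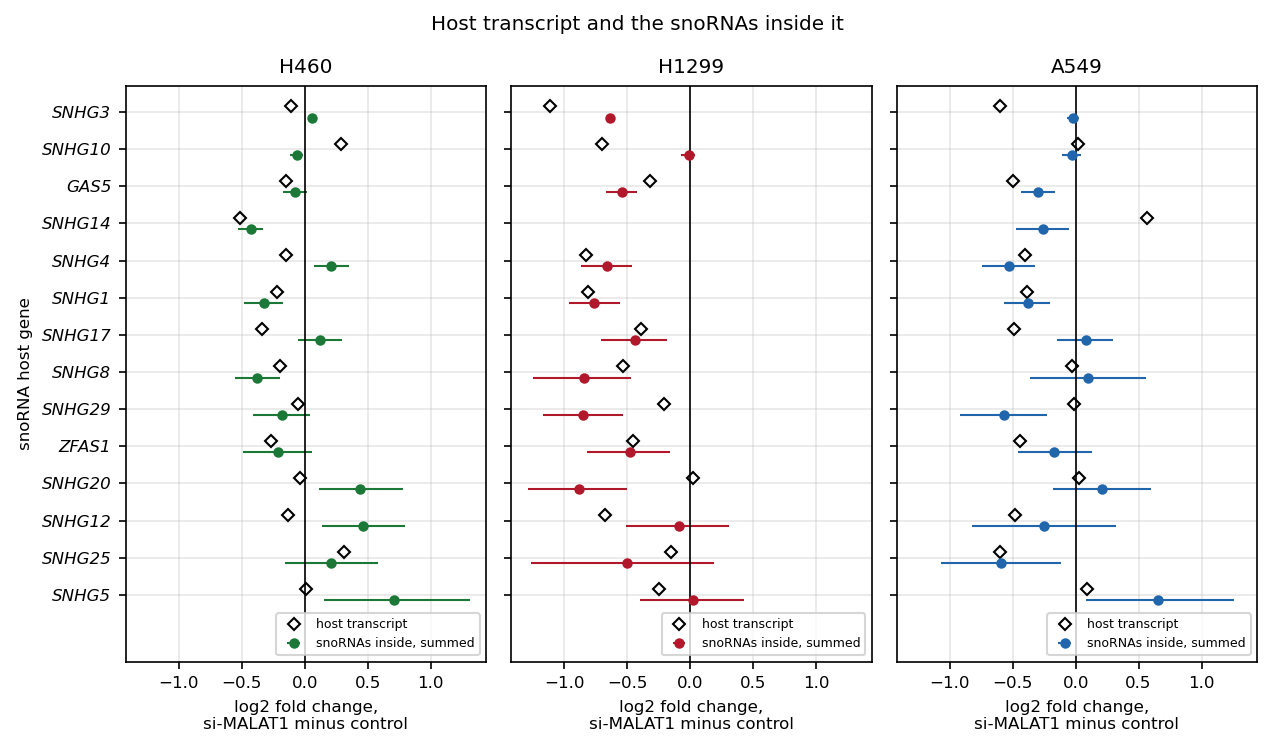
Log2 fold change of the host transcript (diamonds) and of the summed reads of the snoRNAs inside it (points, with bars for the exact 95% counting interval) for 14 hosts with a mean of at least 50 reads of each kind, si-MALAT1 minus control. In H1299 nearly all points lie left of 0, and SNHG14 is left out there because its snoRNAs had 0 reads.

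The summed snoRNA reads of SNHG1 were 783 and 591 for H460, 610 and 329 for H1299, and 523 and 444 for A549. Their log2 fold changes of -0.32, -0.76, and -0.38 lay beside -0.22, -0.81, and -0.39 for the spliced host. SNORD25 had 1 read in each library, which carries no usable ratio. In H1299 the others ranged from -1.33 (SNORD27) to -0.50 (SNORD22). SNORD27, shown above, was at 0.10 in H460 and -0.22 in A549, and SNORD31 was at -0.77, -1.12, and -0.06 in H460, H1299, and A549. The GAS5 snoRNAs had 1960 and 1757 reads for H460, 1302 and 816 for H1299, and 968 and 871 for A549, or log2 fold changes of -0.08, -0.54, and -0.30. Here the order of the lines differed from the host, which was lowest in A549. Among them SNORD76 was at -0.28, -0.87, and -0.66, and SNORD47 at -0.19, -0.35, and -0.18.

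SNORA73A in SNHG3 had the most reads of any snoRNA in a host, with 11516 and 11430 for H460, 17287 and 10091 for H1299, and 4823 and 5048 for A549. Its log2 fold changes of 0.07, -0.65, and -0.08 followed the host in H1299, and in A549 the host was at -0.60. The SNHG29 snoRNAs were at -0.18, -0.85, and -0.57, below the host in each line. Among them SNORD65, shown above, had the lowest value in H1299, and was at 0.06, -1.32, and -0.34. SCARNA13, inside the exon of SNHG10, had 5842 and 5280 reads in H1299, a log2 fold change of -0.01, while the host was at -0.70.

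Other genes of the same pathway were set beside the hosts from lists of genes. Of the 228 protein-coding genes with a snoRNA inside, 220 had reads in all libraries, and their median log2 fold changes were 0.01, -0.04, and 0.02 in the order H460, H1299, and A549, which is kept below. In H1299, 9 of them were at least 1.5-fold lower and 19 at least 1.5-fold higher. The only one with a mean of at least 50 reads that was at least 1.5-fold lower in all 3 lines was ATP6V0E1, a subunit of the vacuolar proton pump (-0.61, -0.71, and -1.26, edgeR adjusted p = 0.0994), and DESeq2 called 7 of them lower and 6 higher. The 228 include RCC1, MATR3, and SEC14L1, which overlap SNHG3, SNHG4, and SNHG20 on the same strand, so a snoRNA may lie inside both. The 10 other lncRNA hosts had medians of -0.13, -0.19, and 0.16. All 308 snoRNA genes with reads in every library had medians of 0.04, -0.34, and -0.01, with 220 below 0 in H1299, and the 92 with a mean of at least 50 reads had -0.01, -0.45, and 0.02. The 61 snoRNAs inside the 32 hosts with reads in every library had 0.04, -0.51, and -0.11, with 50 below 0 in H1299. The 33 of these 61 with a mean of at least 50 reads had -0.03, -0.58, and -0.18, with 30 below 0 in H1299.

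**Figure D4:**
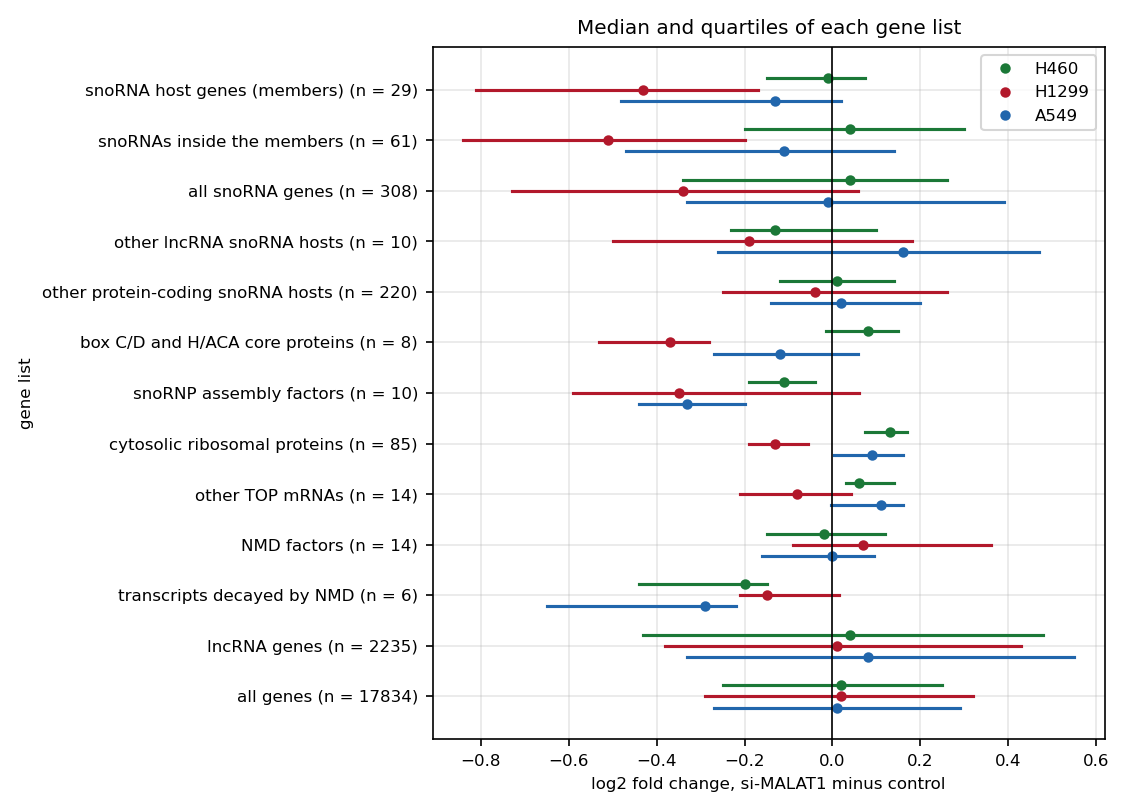
Median (points) and quartiles (bars) of the log2 fold change, si-MALAT1 minus control, of each gene list in the 3 cell lines, for genes with at least 1 read in every library. In H1299 the snoRNA hosts lay at a median of -0.43, the snoRNAs inside them at -0.51, and the snoRNP core proteins at -0.37, while all genes lay at 0.02.

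The 8 core proteins of snoRNPs, among them the methyltransferase FBL and the pseudouridine synthase DKC1, had medians of 0.08, -0.37, and -0.12, and 7 of 8 were below 0 in H1299. The 10 assembly factors had -0.11, -0.35, and -0.33. DESeq2 called no core protein and 1 assembly factor lower. It was the helicase RUVBL1 (-0.58, -0.74, and -0.81, DESeq2 adjusted p = 2.71e-07, edgeR 0.0819), named here after its values were seen.

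The 85 cytosolic ribosomal protein genes, which share the TOP start, had medians of 0.13, -0.13, and 0.09, and 78 of 85 were below 0 in H1299. One of them, RPL22L1, a paralog of RPL22, was at least 1.5-fold lower in all 3 lines (-0.64, -0.87, and -1.13, edgeR adjusted p = 0.0768). DESeq2 called 3 ribosomal protein genes lower, RPL22L1 among them. The 14 other TOP mRNAs had medians of 0.06, -0.08, and 0.11, with none called by DESeq2. The 14 NMD factors had medians of -0.02, 0.07, and 0.00, and 6 transcripts known to be decayed by NMD had -0.20, -0.15, and -0.29, of which DESeq2 called 1 lower, the stress response factor ATF4 (-0.17, -0.60, and -0.84, adjusted p = 0.0225), also named after its values were seen. In all of these lists edgeR called no gene.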

How the data were processed

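Total RNA was depleted of ribosomal RNA and made into stranded libraries for paired-end sequencing. The authors aligned trimmed reads to hg38 with HISAT2 2.1.0 and deposited read counts (not normalized), FPKM, and TPM per gene on an NCBI annotation. The methods and the submitters' notes (1.3.4b) name different StringTie versions. The strand setting of the counting is not given in the sources used here. FPKM was not used, nor were 18 columns of per-sample values that belong to no sample here.

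The host genes and lists were chosen with earlier results of these data known. Counts were tested over all genes with edgeR 4.0.16 (R 4.3.3, TMM, filterByExpr by treatment or by cell line, quasi-likelihood test, Benjamini-Hochberg) with treatment and cell line as terms, and 2 residual degrees of freedom. The replicate numbers pair samples because each number is 1 cell line. Nothing says whether libraries of a line came from separate cultures, so p-values measure only the spread between these samples. DESeq2 1.42.0 was the alternative. Within a line, log2(RLE-scaled count + 1) was compared for genes with reads in all 6 libraries. Every host with a mean of at least 50 reads is named, and values per library are given for any host past 1.5-fold in the same direction in all 3 lines (none), the 5 of smallest p, highest TPM, or widest range of change, the 3 of widest range between lines, and GAS5, SNHG1, ZFAS1, and CYTOR. Of other lists, a gene past 1.5-fold in all 3 lines could be named. The edgeR fit was tested on simulated counts. Annotated introns of the hosts began with GT and ended with AG in hg38 in 346 of 347 cases. Analyses used Python 3.11.15, scipy 1.17.1, and pandas 2.3.3.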

Additional observations from a re-analysis of the deposited data

Results flagged for a closer look

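SNHG14 moved in opposite directions in the lines that express it, with a log2 fold change of 0.57 in A549 and -0.51 in H460, and each counting interval lay on its own side of 0. The difference between the lines was not tested, since each has 1 library per condition. The snoRNAs inside SNHG14, by their summed reads, were lower in both lines, at -0.43 in H460 and -0.26 in A549.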

How the results depend on the processing

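The count of hosts called in the paired test stayed at 0 with RLE size factors, without a filter, with no replicate block, and without any 1 line (0 to 0 hosts). With edgeR, 0 genes in all were called without a filter, with no replicate block, without H1299, and without A549. A count of 0 hosts was fixed in those settings. The count of hosts was 2 with DESeq2, for SNHG1 (adjusted p = 0.0455, and 0.0455 to 1.0 over all alternatives) and ZFAS1 (0.0124, and 0.0124 to 1.0). Leaving out 1 line turned the direction in the paired test for CYTOR without A549 (adjusted p = 1.0, range over the 3 lines left out 0.46 to 1.0), for SNHG10 without H1299 (0.686, range 0.49 to 0.973), for SNHG5 without H1299 (0.91, range 0.868 to 0.979), and for SNHG14 without H460 and without H1299 (0.345 and 0.985, range 0.345 to 0.985). The cell line term called 13 to 20 hosts when 1 line was left out, with 13 without H1299, and 20 to 23 in the other alternatives. All genes called in the paired test numbered 1 in the main model, 163 without H460, and 1140 with DESeq2. At 1.5-fold, log2(TPM + 1) gave 1 host lower and 0 higher in H460. Keeping zeros gave 3 higher in H460 and 3 in H1299. A log2 threshold of 1.5 left 0 in each count, that is 0 lower in H1299 and A549 and 0 higher in H460 and H1299. Leaving out SNHG3, SNHG4, SNHG14, SNHG20, SNHG28, and CYTOR, which share exonic bases with another gene on the same strand or sequence with a copy, an alternative chosen after seeing the data, gave 2 lower in A549. Hosts lower in all lines kept numbered 0 to 2 when 1 line was left out, with 2 (SNHG3 and SNHG9) without H460, and hosts higher numbered 0 to 1, with 1 (SNHG31) without A549. These counts have no share of all genes over the lines kept beside them. The causes were not tested. Hosts with few reads, such as SNHG9 and SNHG31, are limited by depth.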
